A study of Mus musculus with 8 samples.

Results

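The genes examined here are 10 genes of amino acid synthesis and transport that the transcription factor ATF4 is known to control: Asns, Phgdh, Psat1, Psph, Shmt2, Mthfd2, Aldh1l2, Slc7a11, Slc7a5 and Slc3a2. They were measured by every probe that the deposited gene tables name with one of these symbols, and make up 10 of 26894 symbols on the array. RNA came from dentate gyri dissected from male C57BL/6 mice at an age of 8 to 9 weeks, and each sample was hybridised alone to an Agilent mouse array that reads a single dye. Derlin-1 control mice carried Derlin-1flox/flox and Derlin-2 control mice Derlin-2flox/flox, and the respective KO mice carried the same floxed alleles together with Cre recombinase under the nestin promoter. That promoter is active in neural precursors, so the neurons and glia that descend from them are targeted, whereas microglia come from another lineage. Mice with Cre and no floxed allele were not among the groups. The 4 groups held 2 arrays each, and since the genotype label of KO samples gives only the floxed allele, the KO groups rest on the sample titles. Nothing in the labels says whether an array is 1 animal or a pool, so the p-values measure the spread between these arrays, which may be technical.

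Derlin-1 and Derlin-2 sit in the membrane of the endoplasmic reticulum (ER) and help to clear misfolded proteins. When unfolded proteins accumulate in the ER, the kinase PERK (Eif2ak3) phosphorylates the initiation factor eIF2, general translation falls, and the mRNA of ATF4 is translated more. The kinase GCN2 (Eif2ak4) does the same when amino acids run short. ATF4 then binds composite C/EBP-ATF elements and induces genes that make or import amino acids, among them asparagine synthetase, the enzymes of serine synthesis, mitochondrial one-carbon enzymes, and the transporters of cystine and of large neutral amino acids. In brain, the first enzyme of serine synthesis is abundant in astrocytes and neural stem cells, and the cystine transporter supplies the cysteine of glutathione.

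The promoters of the members were searched for the core of the C/EBP-ATF element, the letters TGATGNAA on either strand, in windows of 250 bases before to 50 bases after the RefSeq transcript start (build GRCm38.p6). The motif was present in 1304 of 32851 such windows in the mouse table, or 3.97%. Counted by gene, it was present in 1219 of 27025, or 4.51%. Of the 10 members, 8 had an entry, with 9 windows between them, and the motif was found in 2 members, Asns and Slc7a11. The table used has no entry for Slc7a5 or Aldh1l2. The windows with a match are shown because these letters are those that ATF4 and its C/EBP partners are known to bind; capitals mark the matches. A match is a description of the letters and not a measured binding site. The Asns window lies at chr6:7693160-7693459 on the minus strand, with 1 match, TGATGAAA, that starts at position -23 from the transcript start. The Slc7a11 window lies at chr3:50443564-50443863 on the minus strand, with 2 matches, TGATGCAA at position -66 and its counterpart on the opposite strand, TTGCATCA, at position -47.
Asns: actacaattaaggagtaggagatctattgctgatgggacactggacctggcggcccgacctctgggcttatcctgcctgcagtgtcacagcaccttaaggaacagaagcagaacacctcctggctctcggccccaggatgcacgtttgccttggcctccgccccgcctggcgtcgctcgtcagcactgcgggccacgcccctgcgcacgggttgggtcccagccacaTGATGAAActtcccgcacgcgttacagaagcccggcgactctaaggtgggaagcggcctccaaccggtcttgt
Slc7a11: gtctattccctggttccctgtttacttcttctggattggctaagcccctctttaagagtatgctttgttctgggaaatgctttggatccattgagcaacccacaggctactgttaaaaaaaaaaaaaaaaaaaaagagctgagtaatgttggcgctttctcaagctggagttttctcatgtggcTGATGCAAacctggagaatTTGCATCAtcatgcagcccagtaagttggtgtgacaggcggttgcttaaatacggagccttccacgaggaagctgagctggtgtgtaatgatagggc

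Signals are given as log2 of the spot brightness after quantile normalization over the 8 arrays, and a difference is the KO mean minus the control mean of a line on this scale. A gene is represented by its brightest probe, and levels of different probes are not compared with each other, because probes differ in how strongly they bind. Between 67.6% and 70.8% of all probes exceeded background clearly on a given array, and Pearson's r across probes was 0.987 to 0.995 within a group. The 2 lines were hybridised on a slide each, so line and slide cannot be told apart, whereas KO and control of a line shared a slide. The targeted transcripts gave an uneven check of the labels. Derl1 was lower on both Derlin-1 KO arrays by a log2 difference of -0.20 (SE 0.10, adjusted p 0.9999 in limma; -0.12 with normexp background correction), which does not settle the labels of this line. Derl2 was lower on both Derlin-2 KO arrays by -0.65 (SE 0.097, adjusted p 0.257 in limma), measured by a probe of the last eighth of the array rows. All markers measured for granule neurons and for the other resident cell types were well above background on every array, and so were those of CA pyramidal neurons, choroid plexus and meninges, which adjoin the dissected tissue.

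None of the 10 genes passed the threshold of an adjusted p of 0.05 in either line. Among Derlin-1 mice, their differences ran from -0.043 (Slc7a5) to 0.16 (Slc7a11), with a median of 0.074 against -0.020 over the 19909 genes tested. Among Derlin-2 mice, they ran from -0.15 (Slc3a2) to 0.55 (Slc7a11), with a median of 0.077 against 0.0079 over 19814 genes. In each line 7 members were higher in KO and 3 were lower, where 44% of all genes were higher in Derlin-1 mice and 52.3% in Derlin-2 mice. At an adjusted p under 0.05 in limma, 0 genes (0%) were called over the whole Derlin-1 table and 9 genes (0.0454%) over the Derlin-2 table. At an unadjusted p under 0.05, 0 members were reached in Derlin-1 mice (background 4.25%) and 1 member, Slc7a11, in Derlin-2 mice (background 4.64%). The half-width of the 95% interval was between 0.23 and 0.50 on the log2 scale depending on the gene, so changes smaller than this could not be told from 0 with 2 arrays a group, even before adjustment.

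**Figure D1:**
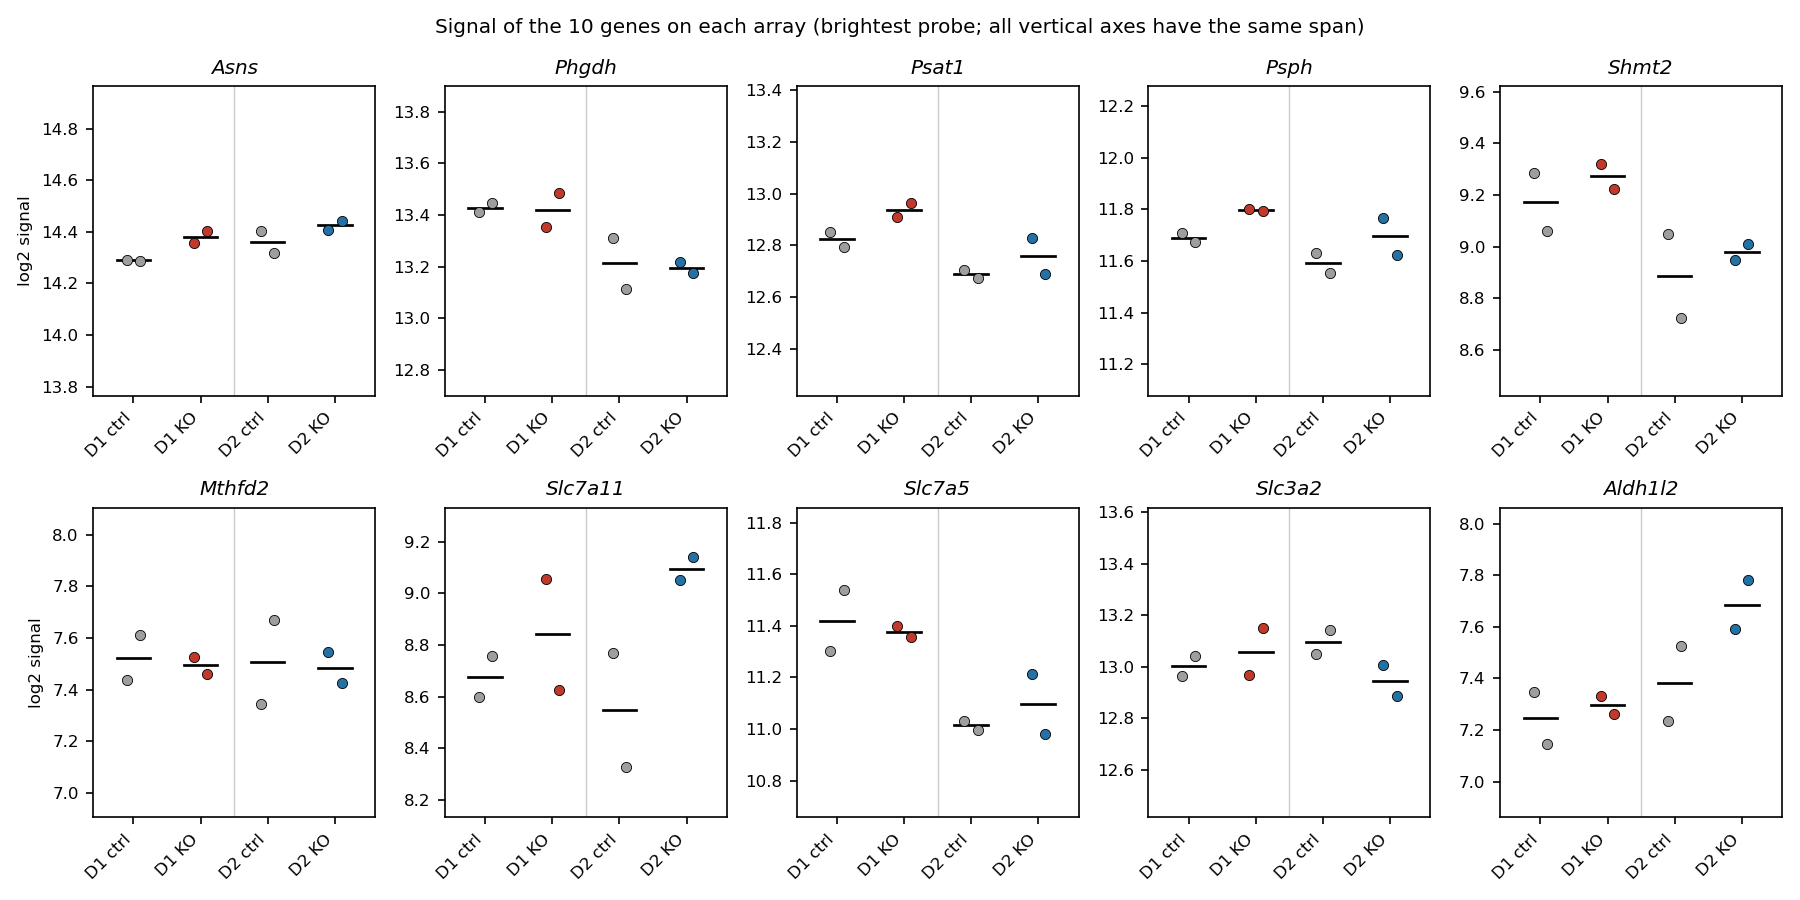
Log2 signal (vertical axis, with the same span in every panel) of the brightest probe of each of the 10 genes on every array, with groups on the horizontal axis (D1 and D2, Derlin-1 and Derlin-2 lines; ctrl, control); points are arrays and bars are means of 2 arrays. For Asns both KO points lie above both control points in each line, and for Slc7a11 they do so in Derlin-2 mice.

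Whether KO and control arrays overlapped was examined next. For Derlin-1, every KO array was above every control array for 3 members (Asns, Psat1 and Psph), against 16.3% of all genes, and below them for 0 members, against 17.9%. In Derlin-2 mice 3 members lay above (Asns, Slc7a11 and Aldh1l2), against 18% of all genes, and 1 lay below (Slc3a2), against 14.9%. Asns was the 1 member above in both lines, as were 565 of 19812 genes, or 2.85%. Averaged over the 10 genes, the deviation from the control mean was 0.076 and 0.045 for the arrays of Derlin-1 KO and 0.130 and 0.087 for those of Derlin-2 KO. The medians were 0.075 and 0.053 for Derlin-1 KO and 0.103 and 0.017 for Derlin-2 KO, and on the array with 0.017 (replicate 2) 6 of 10 genes were above the control mean. The control arrays deviated by 0.0080 in either direction in Derlin-1 mice and by 0.024 in Derlin-2 mice. These are equal and opposite by construction, since the mean of the same 2 arrays was subtracted. They give no measure of noise for the KO arrays, and the 10 genes of an array are not replicates.

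Asns encodes asparagine synthetase, which makes asparagine from aspartate and glutamine. Its brightest probe read 14.29 and 14.29 in Derlin-1 control and 14.36 and 14.40 in Derlin-1 KO. The Derlin-2 arrays read 14.40 and 14.32 in control and 14.41 and 14.44 in KO. The KO arrays were thus above the controls in both lines, but by a narrow margin in Derlin-2 mice, where 1 control array came close to the lower KO array. The difference was 0.090 (SE 0.092) in Derlin-1 mice and 0.064 (SE 0.092) in Derlin-2 mice, with limma adjusted p-values of 0.9999 and 0.999. In fold terms the 95% intervals were 0.91 to 1.24 and 0.89 to 1.22. The Derlin-2 difference was 0.022 or 0.11 when control replicate 2 or 1 of that line was left out. A dimmer Asns probe to the same transcript record (A_66_P133222) differed by 0.15 (SE 0.12) and 0.023 (SE 0.12), with overlapping arrays in both lines.

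The serine branch starts from a glycolytic intermediate and runs through Phgdh, the first and committed enzyme, Psat1, the aminotransferase, and Psph, the phosphatase that releases serine. The differences of Psat1 and Psph were positive and those of Phgdh near 0, but the 95% interval of each gene included 0 in both lines. Whether the genes differed from each other was not tested. Phgdh read 13.41 and 13.45 in Derlin-1 control and 13.36 and 13.49 in Derlin-1 KO. Its Derlin-2 values were 13.31 and 13.11 in control and 13.22 and 13.18 in KO. KO and control arrays interleaved in both lines, with differences of -0.0089 (SE 0.11) and -0.016 (SE 0.11), of which the second was 0.033 with scaling to the 75th percentile. The 95% interval of Phgdh was 0.82-fold to 1.2-fold in Derlin-1 mice and 0.82-fold to 1.19-fold in Derlin-2 mice.

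Psat1 read 12.85 and 12.79 in Derlin-1 control and 12.91 and 12.96 in Derlin-1 KO, with both KO arrays above. For Derlin-2, the values were 12.70 and 12.67 in control and 12.83 and 12.69 in KO, where the lower KO array fell between the controls. The differences were 0.11 (SE 0.10) and 0.071 (SE 0.10), and omission of Derlin-2 KO replicate 1 moved the second to -0.00018. Psph read 11.71 and 11.67 in Derlin-1 control and 11.80 and 11.79 in Derlin-1 KO. On the Derlin-2 side it read 11.63 and 11.55 in control and 11.77 and 11.62 in KO. The Psph difference was 0.11 (SE 0.099) in Derlin-1 mice, without overlap, and 0.10 (SE 0.099) in Derlin-2 mice, with overlap. The adjusted p-values of these 3 genes were 0.9999 in Derlin-1 mice and 0.999 in Derlin-2 mice in limma. A second, dimmer Psat1 probe (A_66_P121495) differed by -0.091 (SE 0.22) in Derlin-1 mice and by 0.076 (SE 0.22) in Derlin-2 mice, so the sign in Derlin-1 mice differed between probes.

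Shmt2, Mthfd2 and Aldh1l2 encode mitochondrial enzymes that carry the one-carbon unit of serine onto folate, oxidise it, and release it from formyl-folate, respectively. Shmt2 and Mthfd2 overlapped between KO and control in both lines, and Aldh1l2 lay above its controls in Derlin-2 mice. Shmt2 read 9.28 and 9.06 in Derlin-1 control and 9.32 and 9.22 in Derlin-1 KO. Its Derlin-2 values were 9.05 and 8.72 in control and 8.95 and 9.01 in KO. The control arrays were spread wider than the KO arrays in each line, and the differences were 0.10 (SE 0.15) and 0.094 (SE 0.15). Each turned negative when control replicate 2 of its line was left out, to -0.011 and -0.070. Mthfd2 read 7.44 and 7.61 in Derlin-1 control and 7.53 and 7.46 in Derlin-1 KO. Among Derlin-2 mice it read 7.34 and 7.67 in control and 7.55 and 7.42 in KO. All KO values of Mthfd2 lay between their controls, with differences of -0.029 (SE 0.14) and -0.021 (SE 0.14), of which the first was 0.061 under 75th percentile scaling and the second 0.0045 with normexp. A second Mthfd2 probe to the same record (A_55_P2745905) differed by -0.0048 (SE 0.14) and -0.18 (SE 0.14), and its Derlin-2 KO arrays lay below both controls.

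Aldh1l2 was measured by 3 probes, which did not behave alike. The brightest (A_55_P2809133) read 7.35 and 7.14 in Derlin-1 control and 7.33 and 7.26 in Derlin-1 KO. The Derlin-2 arrays read 7.24 and 7.53 in control and 7.59 and 7.78 in KO, so both KO arrays were above. The differences were 0.050 (SE 0.15) in Derlin-1 mice and 0.31 (SE 0.15) in Derlin-2 mice, the latter a 1.24-fold difference with a 95% interval of 0.97 to 1.58 (adjusted p 0.954 in limma). The Derlin-2 value fell to 0.16 without Derlin-2 control replicate 1 and was 0.45 without Derlin-2 control replicate 2. A dimmer probe to the same record (A_52_P498193) had KO above control in both lines. It read 6.49 and 6.31 in Derlin-1 control, 6.55 and 6.78 in Derlin-1 KO, 6.06 and 5.93 in Derlin-2 control, and 6.64 and 6.35 in Derlin-2 KO. Its differences were 0.27 (SE 0.15) and 0.50 (SE 0.15), the latter at a limma adjusted p of 0.745, and it was the 1 member probe in the last eighth of the array rows. With the probes of those rows left out, the calls over all probes went from 18 to 4 for Derlin-2.

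The third Aldh1l2 probe (A_55_P2618431) matches another transcript record of the gene. It read 5.95 and 6.02 in Derlin-1 control and 6.54 and 6.58 in Derlin-1 KO, the widest gap relative to its spread among the member probes of that line. On the Derlin-2 side it read 5.49 and 5.20 in control and 5.23 and 5.11 in KO, with overlap. The difference was 0.58 (SE 0.13, unadjusted p 0.00414, adjusted p 0.9999 in limma) in Derlin-1 mice and -0.17 (SE 0.13) in Derlin-2 mice. The contrast of the lines was 0.75 (SE 0.18) here and did not pass (adjusted p 0.688 in limma), whereas the brightest probe gave -0.26 (SE 0.21). The 3 probes therefore give no single direction for Aldh1l2 between the lines.

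Slc7a11 encodes xCT, which exchanges glutamate for cystine, and by brightest probe was the member with the largest difference in each line. Its brightest probe (A_51_P129502) read 8.60 and 8.76 in Derlin-1 control and 9.06 and 8.63 in Derlin-1 KO. Among Derlin-2 mice it read 8.77 and 8.33 in control and 9.05 and 9.14 in KO. The Derlin-1 KO arrays were split, with 1 above and 1 between the controls, while both Derlin-2 KO arrays were above theirs. The group means were 8.68 ± 0.11 and 8.84 ± 0.30 in Derlin-1 mice and 8.55 ± 0.31 and 9.09 ± 0.063 in Derlin-2 mice (control and KO, SD, n = 2). In the order of these means, Derlin-2 control, Derlin-1 control and Derlin-1 KO were neighbours whose arrays overlapped, and the lower Derlin-2 KO array lay just below the higher Derlin-1 KO array. The difference was 0.16 (SE 0.20) in Derlin-1 mice and 0.55 (SE 0.20) in Derlin-2 mice, the latter a 1.46-fold difference with a 95% interval of 1.03 to 2.06. The unadjusted p in Derlin-2 mice was 0.0366 and the adjusted p 0.862 in limma. Leaving out Derlin-2 control replicate 2 gave 0.32 and leaving out Derlin-2 control replicate 1 gave 0.77, and without Derlin-1 KO replicate 1 the Derlin-1 difference was -0.051.

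The other Slc7a11 probes were dimmer and more variable. A_52_P368057, to the same record, read 7.41 and 6.68 in Derlin-1 control, 7.30 and 7.08 in Derlin-1 KO, 6.63 and 5.70 in Derlin-2 control, and 6.60 and 7.45 in Derlin-2 KO. Its differences were 0.15 (SE 0.43) and 0.86 (SE 0.43), and its arrays overlapped in both lines. A_52_P298824, to another record, was well above background on 1 Derlin-1 KO array and on both Derlin-2 KO arrays, and on no control array. It was tested only because it was bright on the Derlin-2 KO arrays. A higher value in Derlin-2 KO was thus favoured by the filter in advance. Its signal there was 1.25-fold above the lowest signal that counts as above background. The 95% interval of its KO to control difference in Derlin-2 mice ran from 0.92-fold to 6.16-fold (adjusted p 0.940 in limma). The 1.25-fold value is therefore no lower limit for that difference. In Derlin-1 mice, the KO array that was not well above background read below both controls.

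Slc7a5 encodes LAT1, the transporter of large neutral amino acids, and Slc3a2 encodes 4F2hc, the heavy chain that carries both LAT1 and xCT to the cell surface. Neither gene passed the limma test in either line. Slc7a5 read 11.30 and 11.54 in Derlin-1 control and 11.40 and 11.35 in Derlin-1 KO. Its Derlin-2 values were 11.03 and 11.00 in control and 11.21 and 10.98 in KO. The arrays overlapped in each line, with differences of -0.043 (SE 0.13) and 0.083 (SE 0.13). Slc3a2 read 12.96 and 13.04 in Derlin-1 control and 12.97 and 13.15 in Derlin-1 KO. The Derlin-2 arrays read 13.05 and 13.14 in control and 13.01 and 12.88 in KO. Both Derlin-2 KO arrays were below their controls, whereas those of the Derlin-1 line overlapped. The differences were 0.057 (SE 0.11) and -0.15 (SE 0.11), the latter at a limma adjusted p of 0.999 and a 95% interval of 0.74-fold to 1.09-fold.

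**Figure D2:**
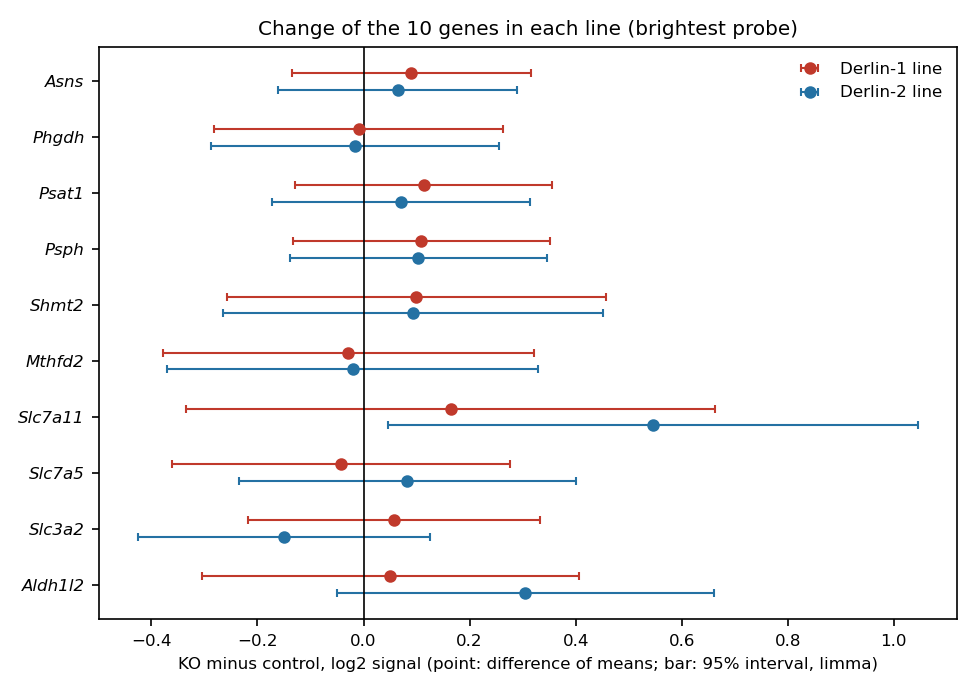
Difference of mean log2 signal, KO minus control (horizontal axis), for the brightest probe of each of the 10 genes (vertical axis), with the 95% interval from limma; red is the Derlin-1 line and blue the Derlin-2 line. Every interval includes 0 except that of Slc7a11 in Derlin-2 mice, which starts at 0.047.

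The probes of a gene were then compared with each other. Of 22 member probes, 19 passed the filter on dim probes and 18 were well above background on all 8 arrays. The filter removed 3, of Psat1, Shmt2 and Slc7a11, which match other transcript records of these genes. Phgdh, Psph, Shmt2 and Slc7a5 had 1 tested probe, and the other 6 members had more than 1. In Derlin-1 mice 12 of the 19 probes were higher in KO and 7 were lower, and 1 (the third Aldh1l2 probe) had an unadjusted p under 0.05, where the share over all probes was 4.69%. Among Derlin-2 mice, 14 were higher and 5 lower, and 2 (the brightest Slc7a11 probe and A_52_P498193 of Aldh1l2) had an unadjusted p under 0.05, where the share over all probes was 5.51%. For the difference of the lines 1 probe, the third of Aldh1l2, had an unadjusted p under 0.05 (5.85% of all probes) and 0 passed the adjusted threshold (0.00754%). At the adjusted threshold 0 member probes passed, against 0 of 39981 probes (0%) in Derlin-1 mice and 18 of 39812 probes (0.0452%) in Derlin-2 mice. The Slc3a2 probes disagreed in sign: A_55_P2739449 gave -0.16 (SE 0.23) and 0.17 (SE 0.23), and A_55_P2893745 gave -0.052 (SE 0.28) and 0.13 (SE 0.28), each opposite to the brightest probe in both lines. The 2 Slc7a11 probes that were well above background on all arrays were positive in both lines. The counts of probes include A_52_P298824, whose sign in Derlin-2 mice was favoured by the filter.

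**Figure D3:**
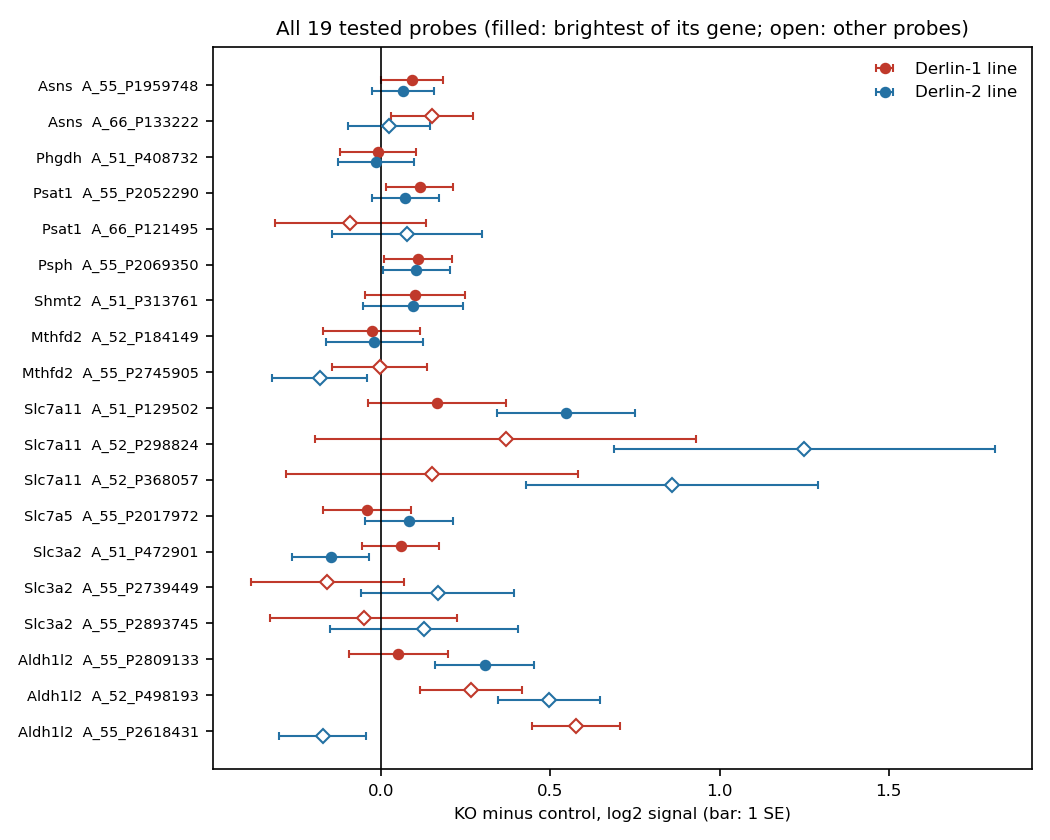
Difference of mean log2 signal, KO minus control (horizontal axis), for each of the 19 tested probes (vertical axis), with bars of 1 SE; filled circles are the brightest probe of a gene and open diamonds its other probes, red for the Derlin-1 line and blue for the Derlin-2 line. The third Aldh1l2 probe (A_55_P2618431) lies at 0.58 in Derlin-1 mice and at -0.17 in Derlin-2 mice.

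A direct test of a different KO effect in the 2 lines called 0 of the 10 genes, with 1 of 19812 genes (0.00505%) called over the whole table, and 0 members reached an unadjusted p under 0.05 (background 4.5%). The median of the Derlin-1 minus Derlin-2 differences was 0.0054 over the members and -0.030 over all genes. By brightest probe, the member with the largest contrast was Slc7a11, at -0.38 (SE 0.29, adjusted p 0.929 in limma), with a 95% interval of -1.09 to 0.32. It ran from -0.61 without Derlin-2 control replicate 1 to -0.16 without Derlin-2 control replicate 2, and was -0.60 and -0.17 without Derlin-1 KO replicates 1 and 2. Slc3a2 gave 0.21 (SE 0.16) and Slc7a5 gave -0.13 (SE 0.18). Of the remaining members, Aldh1l2 is given above, and the values of Asns, Phgdh, Psat1, Psph, Shmt2 and Mthfd2 were between -0.0079 and 0.042. Between the controls of the lines, which also differ in slide, 7 members were higher in Derlin-1 mice, most of all Slc7a5 (0.41) and Shmt2 (0.29), with a median of 0.11 against 0.029 over all genes.

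Other genes of the pathway were taken from 5 lists of 87 genes in all, each of which was measured. None passed the adjusted threshold in either line. For Derlin-1, 10 of 87 had an unadjusted p under 0.05, 8 higher and 2 lower in KO (4.25% of all genes). Both KO arrays lay above both controls for 30 (16.3% of all genes) and below for 17 (17.9% of all genes). In Derlin-2 mice 3 of 87 had an unadjusted p under 0.05, 1 higher and 2 lower (4.64% of all genes), with 17 above (18% of all genes) and 10 below (14.9% of all genes). The medians of the 87 genes were 0.016 and 0.022. For the counts of higher genes below, the share over all genes was 44% in Derlin-1 mice and 52.3% in Derlin-2 mice.

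Serine, glycine and one-carbon enzymes outside the 10 members were mostly lower in Derlin-1 KO. In that line 1 of 16 was higher and 15 were lower, with a median of -0.16. Both KO arrays lay above both controls for 1 (16.3% of all genes) and below for 6 (17.9% of all genes). The median lay between -0.11 and -0.086 with the other scalings, where 2 of 16 were higher. For Derlin-2, 6 of 16 were higher, with a median of -0.043, and 2 lay above (18% of all genes) and 4 below (14.9%). Gcat, which makes glycine from a product of threonine, was the 1 gene higher in Derlin-1 KO, at 0.31 (SE 0.10). Its KO arrays lay above both controls in Derlin-2 mice too, at 0.14 (SE 0.10). KO arrays lay above both controls in each line for 2.85% of all genes. Shmt1, the cytosolic counterpart of Shmt2, differed by -0.28 (SE 0.11; limma adjusted p 0.9999), and by -0.15 to -0.12 with 75th percentile scaling, the deposited values and normexp. Shmt1 overlapped in Derlin-2 mice, at -0.0051 (SE 0.11). Among Derlin-2 mice, the named genes were Aldh1l1 (-0.27, SE 0.12), Amt (-0.27, SE 0.13), a subunit of the glycine cleavage system, and Mtr (-0.73, SE 0.37), methionine synthase. Aldh1l1 is the cytosolic counterpart of Aldh1l2 and an astrocyte marker. Its KO arrays lay below both controls in Derlin-1 mice too, at -0.15 (SE 0.12). The Mtr probe lies in the last eighth of the rows, and its first Derlin-2 control array stood apart at 7.54 against 6.35 on the other. Mtr was at -0.24 with normexp there. In Derlin-1 mice the arrays of Amt and Mtr overlapped. With 75th percentile scaling as the alternative, Amt differed there by -0.12 (SE 0.13; alternative -0.048) and Mtr by -0.11 (SE 0.37; alternative 0.031).

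Enzymes of proline, glutamate and aspartate metabolism had 6 of 12 genes higher in Derlin-1 mice (median 0.00045, and -0.0012 with normexp) and 9 of 12 in Derlin-2 mice (median 0.11). Got1, the cytosolic aspartate aminotransferase, differed by -0.12 (SE 0.092; -0.063 with 75th percentile scaling) in Derlin-1 mice and by 0.17 (SE 0.092) in Derlin-2 mice, without overlap in either. The difference between the lines did not pass for Got1 (adjusted p 0.852 in limma). Gpt, the alanine aminotransferase, differed by 0.32 (SE 0.27) in Derlin-1 mice and by 0.21 (SE 0.27) in Derlin-2 mice, with overlap in the latter. Oat, ornithine aminotransferase, differed by 0.26 (SE 0.15) in Derlin-2 mice, and Glul, glutamine synthetase, by -0.17 (SE 0.12; -0.10 with 75th percentile scaling). In Derlin-1 mice the arrays of Oat and Glul overlapped, at 0.12 (SE 0.15) and -0.046 (SE 0.12; -0.0060 with 75th percentile scaling).

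Amino acid transporters outside the members were higher in KO in 10 of 16 cases in Derlin-1 mice (median 0.069) and in 7 of 16 in Derlin-2 mice (median -0.042). Slc7a3, a transporter of cationic amino acids, read 9.17 and 9.43 in Derlin-1 control and 10.12 and 10.56 in Derlin-1 KO. Its Derlin-2 arrays lay between 9.11 and 9.43, with overlap of KO and control. The difference of 1.04 (SE 0.19, unadjusted p 0.00168, adjusted p 0.9999 in limma) in Derlin-1 mice was the largest of the 87 genes there, and the probe belongs to the last rows, the same eighth as above. The other named transporters of the Derlin-1 line were the glutamine carrier Slc38a1, at 0.22 (SE 0.089), and the neutral amino acid carrier Slc1a4, at 0.19 (SE 0.089). Their KO arrays lay above both controls in Derlin-2 mice too, at 0.11 (SE 0.089) for Slc38a1 and 0.025 (SE 0.089, and -0.0086 with normexp) for Slc1a4. The transporters named for Derlin-2 mice were the glutamine carrier Slc38a3, at -0.55 (SE 0.20, adjusted p 0.853 in limma), Slc7a2, at -0.24 (SE 0.14), and the astrocyte transporter Slc7a10, at 0.21 (SE 0.13). For Slc7a10 the KO arrays lay above both controls in Derlin-1 mice too, at 0.064 (SE 0.13). Those of Slc38a3 and Slc7a2 overlapped with controls there, at -0.27 (SE 0.20) and -0.16 (SE 0.14; -0.025 with 75th percentile scaling).

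Cytosolic aminoacyl-tRNA synthetases, which load amino acids onto tRNA and include known ATF4 targets, were higher in KO in 14 of 20 cases in each line, with medians of 0.039 and 0.018. KO and control arrays were apart for 10 of them in Derlin-1 mice, 8 above (16.3% of all genes) and 2 below (17.9%), and for 0 in Derlin-2 mice (18% and 14.9%), where the differences stayed between -0.084 and 0.10. Cars, the cysteine enzyme, differed by 0.34 (SE 0.10) in Derlin-1 mice, with its probe in the last eighth of the rows. Mars, the methionine enzyme, differed by 0.29 (SE 0.12), and Dars, the aspartate enzyme, by 0.28 (SE 0.16). None of the 20 passed for the difference between the lines.

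**Figure D4:**
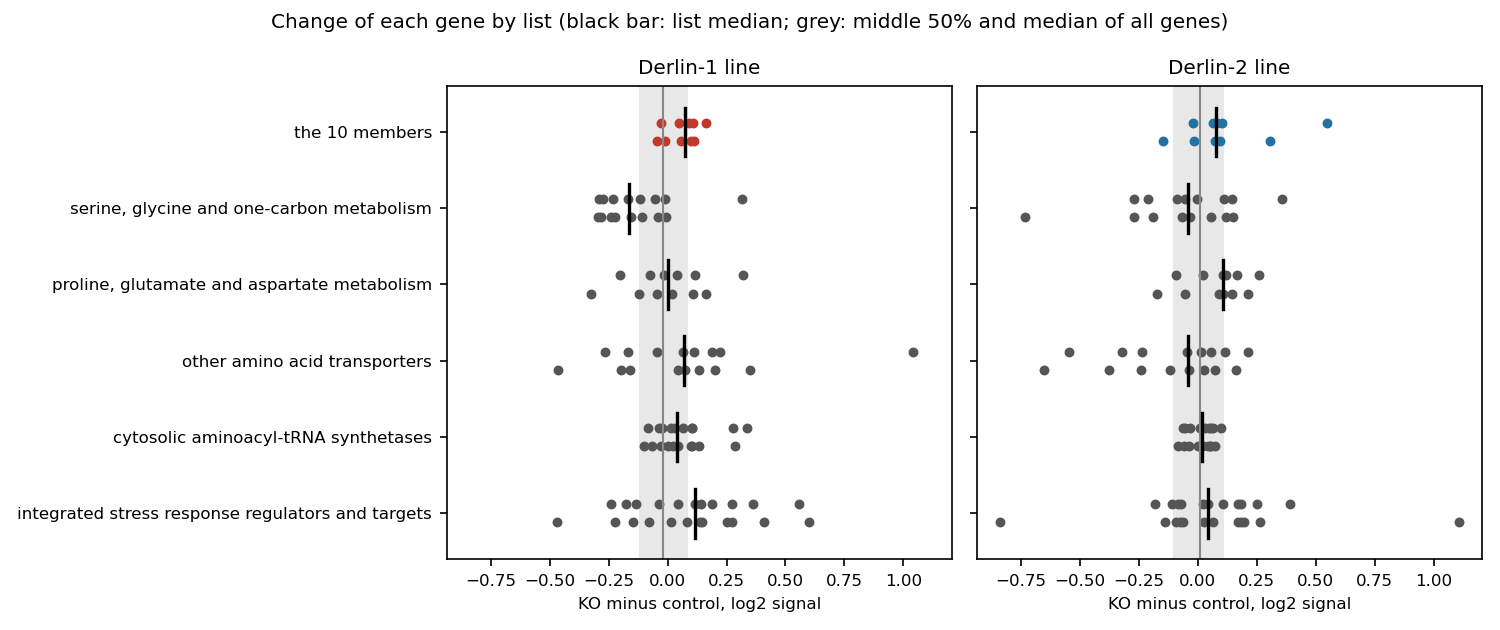
Difference of mean log2 signal, KO minus control (horizontal axis), of each gene of the 10 members and of the 5 pathway lists (rows), in Derlin-1 mice (left) and the Derlin-2 line (right); black bars are list medians, and the grey band and line are the middle 50% and the median of all genes. The list of serine, glycine and one-carbon enzymes has its median at -0.16 in Derlin-1 mice, to the left of the grey band, while the medians of the 10 members are 0.074 and 0.077.

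Regulators and other targets of the integrated stress response were higher in KO in 15 of 23 cases in Derlin-1 mice (median 0.12, 11 above and 5 below their controls) and in 14 of 23 in Derlin-2 mice (median 0.041, 8 above and 2 below). The shares of all genes were 16.3% above and 17.9% below in Derlin-1 mice, and 18% and 14.9% in Derlin-2 mice. The mRNA of Atf4 itself read 15.29 and 15.24 in Derlin-1 control, 15.34 and 15.22 in Derlin-1 KO, 15.00 and 14.80 in Derlin-2 control, and 14.86 and 14.99 in Derlin-2 KO. Its KO and control arrays overlapped in both lines, with differences of 0.015 (SE 0.12; -0.0095 with normexp) and 0.026 (SE 0.12), and ATF4 protein, which is set by translation, was not measured. The sensor kinases differed by 0.14 and 0.17 for Eif2ak3 (SE 0.10 each, with no overlap in either line, and the first 0.075 with normexp) and by 0.14 and 0.064 for Eif2ak4 (SE 0.11 each).

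Among the targets, Trib3, a pseudokinase that restrains ATF4, differed by 0.60 (SE 0.30) in Derlin-1 mice and 0.11 (SE 0.30; 0.015 with normexp) in Derlin-2 mice. Ddit3, the CHOP gene, differed by 0.25 (SE 0.28) and -0.11 (SE 0.28), with overlap in both. Chac1, which degrades glutathione, differed by 0.27 (SE 0.10) and 0.041 (SE 0.10), the second being -0.025 with normexp. Atf3 differed by 0.56 (SE 0.15, and 0.35 with normexp and 0.73 with 75th percentile scaling) in Derlin-1 mice. Eif4ebp1, the inhibitor of cap-dependent translation, differed by 0.36 (SE 0.093) there, with its probe in the last eighth of the rows. In Derlin-2 mice Atf3 and Eif4ebp1 differed by 0.25 (SE 0.15) and 0.18 (SE 0.093). For both genes the KO arrays lay above both controls in each line. Atf5, a factor related to ATF4, differed by 0.41 (SE 0.18) and 0.39 (SE 0.18), and both KO arrays were above both controls in each line. Nupr1, a stress-induced transcriptional regulator, read 8.72 and 9.29 in Derlin-2 control and 10.26 and 9.96 in Derlin-2 KO, a difference of 1.11 (SE 0.21, adjusted p 0.408 in limma), and differed by 0.27 (SE 0.21) in Derlin-1 mice. Eif2ak2, the kinase activated by double-stranded RNA, differed by -0.84 (SE 0.23) in Derlin-2 mice, again with a probe in the last eighth of the rows. Its KO arrays lay below both controls in Derlin-1 mice too, at -0.13 (SE 0.23, and -0.033 with 75th percentile scaling). Nfe2l2, the gene of NRF2, which also induces Slc7a11, differed by -0.18 (SE 0.21) and -0.085 (SE 0.21). The adjusted p-values of these genes in limma were 0.9999 in Derlin-1 mice and 0.408 or more in Derlin-2 mice.

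Genes whose pattern over the 8 arrays was most like that of Slc7a11 were found by Pearson's r, after the control mean of each line was subtracted. They were Chadl (r = 0.961), Rimklb (r = 0.956) and Tmem247 (r = 0.954), and 32 of 19665 genes exceeded an r of 0.9. Tmem247 differed by 0.16 and 0.63 in the Derlin-1 and Derlin-2 lines, Rimklb by 0.0056 and 0.26, and Chadl by 0.060 and 0.14. With 8 arrays that share slides and groups, these values are descriptions only.

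The cell types in which some members are known to be abundant were set beside them. In bulk tissue, fewer cells of a type and less RNA per cell cannot be told apart. Of 10 astrocyte markers, 5 were higher in Derlin-1 KO and 6 in Derlin-2 KO, with medians of 0.028 and 0.094 and mean levels per array of 13.07 to 13.14 in Derlin-1 mice and 12.85 to 12.97 in Derlin-2 mice. Of 8 markers of neural stem and progenitor cells, 3 were higher in Derlin-1 KO (median -0.015) and 7 in Derlin-2 KO (median 0.20). In Derlin-2 KO 2 of these 8 were higher at an unadjusted p under 0.05 (4.64% of all genes). Of 8 microglial markers, 0 were higher in Derlin-1 KO (median -0.13) and 5 in Derlin-2 KO (median 0.086), and of 8 endothelial markers 4 and 5 were higher (medians -0.00055 and 0.055). Of 8 granule neuron markers, 3 were higher in Derlin-1 KO (median -0.042) and 5 in Derlin-2 KO (median 0.057). At an unadjusted p under 0.05, 2 of them were lower in Derlin-1 KO (4.25% of all genes) and 1 was higher in Derlin-2 KO (4.64% of all genes). Choroid plexus markers had medians of 0.27 in Derlin-1 mice and 0.075 in Derlin-2 mice. In Derlin-1 KO 1 of 8 was higher at an unadjusted p under 0.05 (4.25% of all genes). Markers of meninges and fibroblasts had medians of 0.18 and 0.20, with 6 of 8 higher in each line. Of these 8, 1 was lower in Derlin-1 KO at an unadjusted p under 0.05 (4.25% of all genes). Oligodendrocyte markers had medians of -0.016 and 0.062. CA pyramidal markers averaged 11.24 and 11.85 on the Derlin-1 control arrays and 11.35 and 11.85 in Derlin-1 KO, against 11.98 to 12.11 over the Derlin-2 arrays. In the Derlin-1 line replicate 1 was thus below replicate 2 in both groups. Granule neuron markers ran the other way there, at 12.52 and 12.06 in control and 12.25 and 11.91 in KO. Whether a replicate number marks a shared dissection was not tested. Of 4 blood genes measured, 0 were higher in KO in either line (medians -0.49 and -0.16). In Derlin-1 KO 1 of them was lower at an unadjusted p under 0.05 (4.25% of all genes). Derlin-1 control replicate 2 stood apart at a mean of 13.13 against 12.02 to 12.14 on the other arrays of its line. With that array left out, the Derlin-1 differences of Asns, Psat1, Psph, Slc3a2 and Slc7a11 kept their sign, at 0.090, 0.084, 0.092, 0.095 and 0.24. Those of the other 5 members turned, to -0.051 for Aldh1l2, -0.011 for Shmt2, 0.059 for Mthfd2, 0.0090 for Phgdh and 0.074 for Slc7a5. The part of these cell types in the values of the members was not tested.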

How the data were processed

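The deposited scanner files hold spot intensity values from which Agilent Feature Extraction 10.7.1.1 had subtracted the background and a spatial trend, per the file headers. The authors' tables hold log2 values made in GeneSpring by quantile normalization and centring of probes on their median, and these deposited log2 values served only as an alternative. Their columns of group differences and fold changes were not used, but their gene symbols were. Control spots and spots with an outlier flag were removed, signals below 1 were set to 1, log2 was taken, the 8 arrays were quantile-normalized, and repeated spots were averaged, leaving 56605 probes. Of these, 40001 were kept, namely those above background by the scanner's stricter flag on both arrays of any group. Quantile normalization and the floor compress differences of dim probes.

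A model of 4 group means was fitted with limma 3.58.1 in R 4.3.3 (4 residual and 2.08 prior degrees of freedom). Tests were two-sided, with Benjamini-Hochberg adjustment over all probes tested and a threshold of 0.05. An exact test of 2 against 2 arrays cannot go below 0.333. The number of arrays limits the precision. The members and lists were chosen with earlier results of these data known. The text names all members, the regulators listed, and for each pathway list and line up to 3 genes with the smallest p among those above background and without overlap of KO and control; some genes that this rule takes are not reported here. Spot medians stood in for spot means in the normexp alternative. Alternatives tried were other scaling, normexp background correction, the deposited values, no filter, an intensity trend, a fit per line, a replicate block, omission of single arrays or of the last eighth of rows, and the mean over probes. Symbols follow the array design, and promoter sequences are from RefSeq (GRCm38.p6). The effect of scaling on the pathway lists and other named genes was added after seeing the data.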

Additional observations from a re-analysis of the deposited data

How the results depend on the processing

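In 490 recalculations of the 10 members' differences the sign was kept in 437 and turned in 53. Many of these could not turn it. The fits without a filter, with an intensity trend or without the last eighth of rows left each difference as it was. So did those with only the 4 arrays of the line or a replicate block. Leaving out an array of the other line hardly moved a difference within a line. The 437 is therefore no measure of how stable the signs are. No member passed the threshold in any recalculation that kept 2 arrays in every group. The number of arrays, 2 a group, limits the precision. The counts over all probes were unstable. Among Derlin-2 mice 18 probes passed, against 0 with the deposited values, 2 with an intensity trend, 4 without the last eighth of rows, 29 without a filter, 2 with normexp and 0 with only the 4 arrays of the line. Leaving out single arrays gave 4 to 55, the highest 2 being 55 and 47 in the absence of Derlin-2 control replicates 1 and 2, respectively. For the difference of the lines, 3 probes passed, against 5 with scaling to the 75th percentile, 0 with an intensity trend, 0 without the last eighth of rows, 0 without a filter and 0 with normexp, and 0 to 22 when single arrays were left out. Among Derlin-1 mice 0 passed, and 0 to 1 when single arrays were left out, 1 without Derlin-1 control replicate 2.

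The median difference of the members stayed positive in each line, at 0.053 to 0.088 in Derlin-1 mice and 0.017 to 0.104 in Derlin-2 mice when single arrays were left out, the lowest of the latter without Derlin-2 KO replicate 1. The median contrast between the lines was -0.036 with 75th percentile scaling, -0.034 after normexp and -0.062 to 0.049 when single arrays were left out. The number of members with a higher value in Derlin-1 mice went from 6 to 3 with scaling to the 75th percentile, and to 3 at the lowest when single arrays were left out. The cause was not tested.

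Signs of small differences turned as follows. With scaling to the 75th percentile, Mthfd2 was 0.061 in Derlin-1 mice and Phgdh 0.033 in Derlin-2 mice, and the contrast between the lines was -2.3e-05 for Asns, 0.10 for Mthfd2, -0.065 for Phgdh, -0.026 for Psat1 and -0.045 for Psph. The deposited values gave 0.050 for Mthfd2 in Derlin-1 mice and 0.035 for Phgdh in Derlin-2 mice. Normexp gave 0.0045 for Mthfd2 and 0.0042 for Phgdh in Derlin-2 mice, and contrasts of -0.042 for Phgdh and -0.027 for Shmt2. The mean over probes gave contrasts of 0.088 for Aldh1l2, 0.084 for Mthfd2, -0.062 for Psat1 and -0.099 for Slc3a2, and -0.051 and 0.048 for Slc3a2 in the Derlin-1 and Derlin-2 lines.

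When single arrays were left out, the differences that changed sign ranged as follows. Among Derlin-1 mice they were Aldh1l2 -0.051 to 0.15, Mthfd2 -0.12 to 0.059, Phgdh -0.075 to 0.055, Shmt2 -0.011 to 0.21, Slc3a2 -0.034 to 0.15, Slc7a11 -0.051 to 0.38 and Slc7a5 -0.16 to 0.074. Among Derlin-2 mice they were Mthfd2 -0.18 to 0.14, Phgdh -0.11 to 0.083, Psat1 -0.00018 to 0.14, Shmt2 -0.070 to 0.26 and Slc7a5 -0.035 to 0.20. For the contrast of the lines they were Asns -0.017 to 0.067, Mthfd2 -0.17 to 0.16, Phgdh -0.091 to 0.10, Psat1 -0.029 to 0.11, Psph -0.066 to 0.075 and Shmt2 -0.16 to 0.17. All other members kept their sign in these recalculations. Of these, the ones that moved by more than 1.5 times ranged, in Derlin-2 mice, over 0.022 to 0.11 for Asns, 0.033 to 0.18 for Psph, 0.16 to 0.45 for Aldh1l2, 0.32 to 0.77 for Slc7a11 and -0.21 to -0.088 for Slc3a2, and, for the contrast, over -0.40 to -0.11 for Aldh1l2, 0.12 to 0.30 for Slc3a2, -0.61 to -0.16 for Slc7a11 and -0.24 to -0.0080 for Slc7a5. With the mean over probes, which includes the probe kept through Derlin-2 KO, the Slc7a11 contrast was -0.66.

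Replicate numbers are shared by the groups of a line, but nothing in the labels says that a number marks a common litter or day. Same-numbered deviations correlated at 0.268 in Derlin-1 mice and -0.098 in Derlin-2 mice. In Derlin-1 mice the averages of CA pyramidal and granule neuron markers also followed the replicate number, as given above. With a replicate block, 0 probes passed in Derlin-1 mice, 0 in Derlin-2 mice and 0 for the difference of the lines, and 0 members passed.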
